A study of Arabidopsis thaliana with 2 samples.

Results

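Aquaporins are channel proteins that let water and small uncharged solutes cross membranes. The family was taken by a fixed list of gene identifiers, which holds 35 of the 27416 genes in the deposited table. The rule uses no measured value, but this list and the related gene lists were chosen with earlier results of these data known. It comprises 13 plasma membrane intrinsic proteins (PIP), 10 tonoplast intrinsic proteins (TIP), 9 NOD26-like intrinsic proteins (NIP) and 3 small basic intrinsic proteins (SIP). Names are written with a hyphen, so that PIP1-2 stands for the gene usually spelled with a semicolon.

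Whole wild-type (WT) seedlings of Arabidopsis thaliana, strain Columbia, were sequenced on day 10 after germination. The flg22 library came from seedlings given 1 µmol/L flg22, a peptide of bacterial flagellin that plant cells sense through the receptor FLS2, for 4 h. The control library came from seedlings of the same strain and age without flg22. Each library pooled 3 biological replicates, so there is 1 value per group and no spread between replicates. No p-value is therefore computed for any gene, and differences are described by their size and by intervals that cover counting error only. The flg22 library held 24621440 reads over 22891 genes, and the control library 21414567 reads over 22538 genes.

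Aquaporins assemble as tetramers in which each subunit forms its own pore. PIPs sit in the plasma membrane and, in the PIP2 group especially, carry much of the water that crosses it, while TIPs do so at the membrane of the vacuole. NIPs pass metalloids such as boric acid and arsenite and small organic solutes, and SIPs lie in the endoplasmic reticulum. In roots and leaves, PIPs and TIPs are among the most abundant membrane protein transcripts and set hydraulic conductivity together with the gating and traffic of the proteins. Some PIP2 and TIP proteins also pass hydrogen peroxide, which plant cells release when they sense flg22.

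The pore of these channels is lined by 2 copies of an Asn-Pro-Ala motif, and the codons that encode it were counted by subfamily. Since the motif is a trait of the family that the list was drawn from, the counts describe the members and test nothing. In the coding sequences of the TAIR10.1 annotation, 2 in-frame runs of Asn-Pro-Ala codons were present in all 13 PIP genes, all 10 TIP genes and 4 of the 9 NIP genes. Another 4 NIP genes and all 3 SIP genes held 1 run, and NIP5-1 held 0. The window around the last Asn-Pro codons is given here for 5 genes of the 4 subfamilies that recur in the results, with those codons and the following one in capitals. The capitals start at codon 236 of PIP1-5, 200 of TIP1-2, 225 of NIP2-1, 248 of NIP5-1 and 188 of SIP1-2, with 3 codons before and after them. The windows lie at chr4:12221855-12221881 on the plus strand for PIP1-5 and, on the minus strand, at chr3:9722917-9722943 for TIP1-2, chr2:14514794-14514820 for NIP2-1 and chr4:6431686-6431712 for NIP5-1. That of SIP1-2 is joined across an intron within chr5:6055351-6055477 on the minus strand.
PIP1-5: actggcattAACCCGGCCaggagtctc
TIP1-2: gcttccatgAACCCAGCCgttgctttc
NIP2-1: gcatcgatgAATCCAGCCagaagcata
NIP5-1: ggatctatgAATCCTGTGagaactcta
SIP1-2: ccattcatgAATCCTGCCattgcgttt
The codon after Asn-Pro encodes alanine in PIP1-5, TIP1-2, NIP2-1 and SIP1-2, and valine in NIP5-1.

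Most abundant PIP and TIP genes were lower in the flg22 library, while 1 NIP gene, NIP2-1, stood far higher. Summed over the 35 genes, the family reached 1156 RPKM (read count divided by the listed gene length in kilobases and by the library total in units of 1e6 reads) in the flg22 library and 3606 RPKM in the control library, which is 3.12-fold lower with flg22. In reads, aquaporins took 0.197% of the flg22 library and 0.589% of the control library.

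Differences are given on 2 scales. The log2 ratio is log2((flg22 RPKM + 1)/(control RPKM + 1)), which understates differences of weakly expressed genes. The plain ratio is that of the reads per library total, flg22 over control, with an exact binomial 95% counting interval. Genes that averaged 1 RPKM or more across the libraries were kept, and a gene counts as lower or higher where the log2 ratio passes 2-fold. Of the 35 members, 28 passed the filter, 12 of them were at least 2-fold lower and 2 at least 2-fold higher, and 14 lay within 2-fold. Among all 18724 genes past the filter, 8.27% were at least 2-fold lower and 11.3% at least 2-fold higher. The median log2 ratio was -0.51 over the 28 members and -0.03 over all genes past the filter, whose quartiles were -0.44 and 0.42.

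The lower members were mainly the abundant ones. Among the 15 members that averaged 20 RPKM or more, 11 were lower by 2-fold or more and 1 was higher, and the median log2 ratio was -1.48. Among all 4935 genes of that abundance, 12.6% were lower and 17.5% higher, and the median was 0.15. The 13 members that passed the filter at under 20 RPKM had a median of -0.07, with 1 lower and 1 higher. These classes use the mean of the 2 libraries that are compared. TIP2-2 thus reached 20 RPKM only through control (15.7 RPKM with flg22, 84.9 in control), and NIP2-1 only through flg22 (68.9 with flg22, 5.36 in control). TIP2-3, counted as lower, passed the 1 RPKM filter only through control (0.777 with flg22, 2.68 in control).

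**Figure D1:**
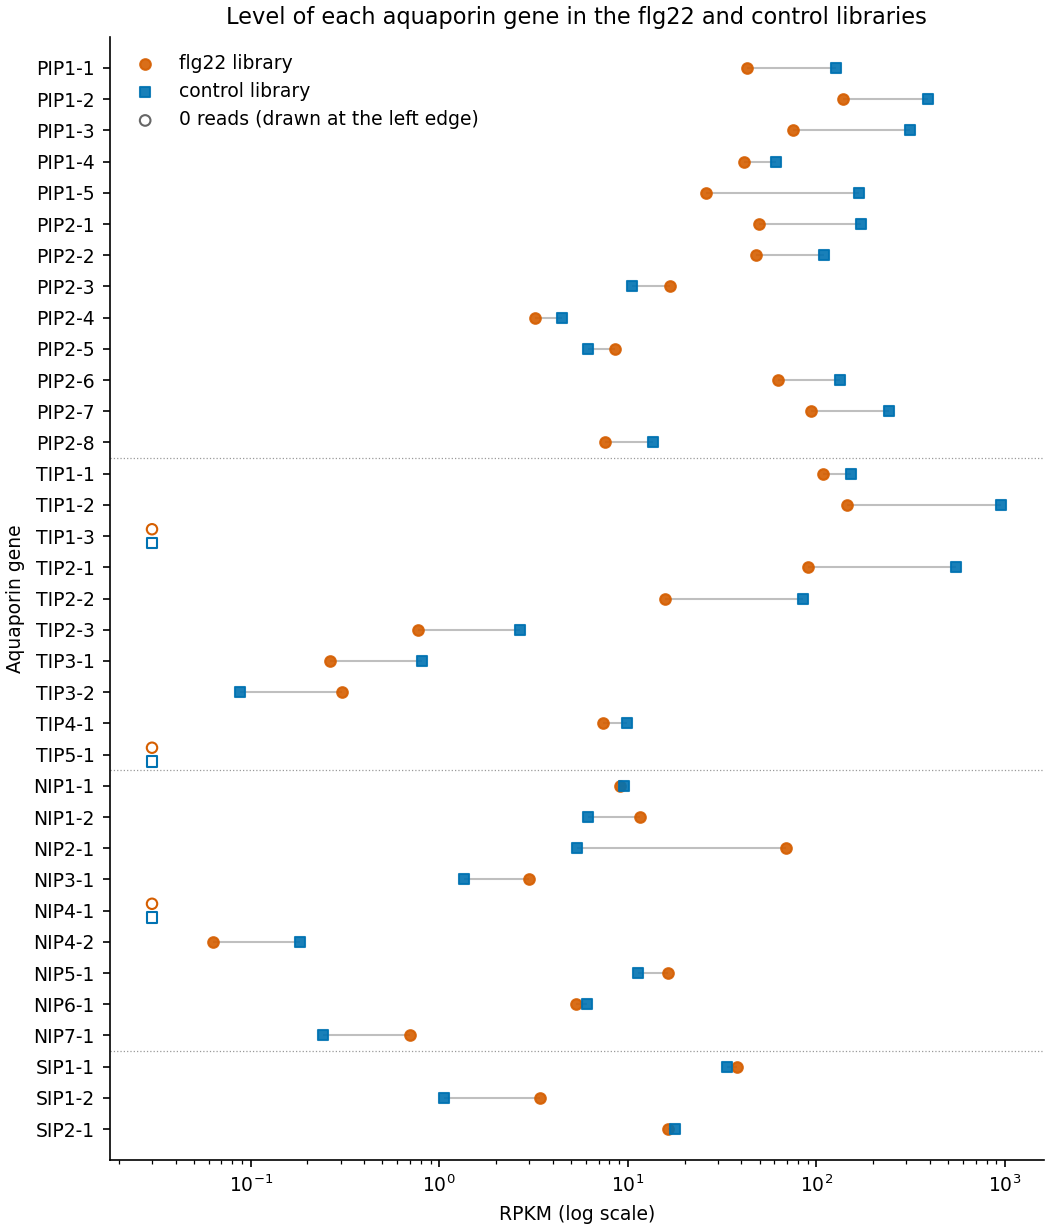
Level of each of the 35 aquaporin genes in RPKM on a log axis, with circles for the flg22 library and squares for the control library, and 1 library per group. TIP1-2 and TIP2-1 lie furthest right in control at 957 and 551.1 RPKM, and NIP2-1 is the abundant gene whose flg22 value, 68.9 RPKM, lies far to the right of its control value, 5.36 RPKM.

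All 5 PIP1 genes were below their control level and 4 of them were at least 2-fold lower. PIP1 proteins mostly reach the plasma membrane as partners of PIP2 proteins. Their summed level was 324.5 RPKM in the flg22 library and 1061 RPKM in the control library, a ratio of 0.306. PIP1-5 (AT4G23400, chr4:12220641-12222468) had 26.1 RPKM from 1046 reads in the flg22 library and 168.6 RPKM from 5878 reads in the control library. That is the furthest of the 13 PIP genes, with a log2 ratio of -2.65 and a plain ratio of 0.155 (interval 0.145 to 0.165). PIP1-3 (AT1G01620, chr1:225665-227543) had 75.05 RPKM in the flg22 library and 314.9 RPKM in the control library, a plain ratio of 0.238 (0.229 to 0.248).

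PIP1-2 (AT2G45960, chr2:18910081-18911982), which contributes to root water uptake and to the passage of CO2 in leaves, was the most abundant PIP gene in both libraries. It had 138.9 RPKM from 5771 reads in the flg22 library and 389.05 RPKM from 14055 reads in the control library, a log2 ratio of -1.48. PIP1-1 (AT3G61430) stood at 42.8 RPKM with flg22 and 127.02 RPKM in control, a log2 ratio of -1.55. PIP1-4 (AT4G00430), which imports hydrogen peroxide from the cell wall space in immunity, was the PIP1 gene within 2-fold. It had 41.6 RPKM in the flg22 library and 60.98 RPKM in the control library, a plain ratio of 0.682 (0.645 to 0.721).

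The 8 PIP2 genes divided into abundant genes that were lower and weakly expressed genes that were not, with 4 of 8 at least 2-fold lower and 4 within 2-fold. Their summed level was 290.3 RPKM with flg22 and 694.0003 RPKM in control, a ratio of 0.418. PIP2-1 (AT3G53420, chr3:19803473-19805730) is a main water channel of the plasma membrane that also passes hydrogen peroxide and acts in guard cells. It had 49.6 RPKM from 2511 reads in the flg22 library and 173.3 RPKM from 7639 reads in the control library, a log2 ratio of -1.79 and a plain ratio of 0.286 (0.273 to 0.299). PIP2-7 (AT4G35100) had 94.02 RPKM with flg22 and 242.6 RPKM in control, and its log2 ratio was -1.36. Both genes stood among the 10 most abundant members in either library.

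PIP2-2 (AT2G37170) and PIP2-6 (AT2G39010) lay just past 2-fold. PIP2-2 had 47.9 RPKM in the flg22 library and 109.3 RPKM in the control library, a log2 ratio of -1.17. PIP2-6 had 62.6 RPKM in the flg22 library and 133.9 RPKM in the control library, a log2 ratio of -1.08. The other PIP2 genes were expressed at under 20 RPKM. PIP2-8 (AT2G16850) had 7.59 RPKM with flg22 and 13.7 RPKM in control, and PIP2-4 (AT5G60660), found mainly in roots, had 3.23 RPKM with flg22 and 4.48 RPKM in control. The log2 ratio was -0.77 for PIP2-8 and -0.37 for PIP2-4.

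PIP2-3 and PIP2-5 were the 2 PIP genes whose flg22 value was above control. PIP2-3 (AT2G37180), known as the desiccation-responsive gene RD28, had 16.8 RPKM from 597 reads in the flg22 library and 10.6 RPKM from 328 reads in the control library, a plain ratio of 1.58 (1.38 to 1.82). PIP2-5 (AT3G54820) had 8.58 RPKM with flg22 and 6.15 RPKM in control, a plain ratio of 1.39 (1.19 to 1.63). Neither reached 2-fold. Over all 13 PIP genes the median log2 ratio was -1.17, with 8 lower, 0 higher and 5 within 2-fold, and the summed level was 614.7 RPKM in the flg22 library and 1755 RPKM in the control library.

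The TIP genes differed most in summed level, at 368.8 RPKM in the flg22 library and 1759 RPKM in the control library, which is 4.77-fold lower with flg22. Of the 10 TIP genes, 6 passed the filter, 4 of these were at least 2-fold lower, 2 lay within 2-fold and 0 were higher. TIP1-2 (AT3G26520, chr3:9722443-9723904), a gamma-type water channel of the vacuole, was the most abundant aquaporin gene in control. It had 145.3 RPKM from 4907 reads in the flg22 library and 957 RPKM from 28116 reads in the control library. This was 6.59-fold lower with flg22 (interval 6.39 to 6.79), the lowest plain ratio of the members past the filter, at 0.152 (0.147 to 0.156), although its interval overlapped that of PIP1-5. TIP1-1 (AT2G36830), the other abundant gamma-type gene, had 109.1 RPKM from 3086 reads in the flg22 library and 152.3 RPKM from 3747 reads in the control library, and lay within 2-fold at a plain ratio of 0.716 (0.683 to 0.751).

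All 3 TIP2 genes were at least 2-fold lower, and their sum was 106.5 RPKM with flg22 and 638.7 RPKM in control. TIP2-1 (AT3G16240, chr3:5505360-5507050), the delta-type channel that passes water and ammonia, had 90.06 RPKM from 3650 reads in the flg22 library and 551.1 RPKM from 19425 reads in the control library. Its log2 ratio was -2.60 and its plain ratio 0.163 (0.158 to 0.169). TIP2-2 (AT4G17340) had 15.7 RPKM with flg22 and 84.9 RPKM in control, a plain ratio of 0.185 (0.166 to 0.205). TIP2-3 (AT5G47450), also an ammonia channel, rested on 24 reads in the flg22 library and 72 reads in the control library, a log2 ratio of -1.05 that no longer passed 2-fold with 5 RPKM added (-0.41).

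The remaining TIP genes were weakly expressed or absent from the reads. TIP4-1 (AT2G25810) had 7.396 RPKM with flg22 and 9.96 RPKM in control, within 2-fold. TIP3-1 (AT1G73190) and TIP3-2 (AT1G17810), which belong to the protein storage vacuoles of seeds, did not pass the filter. TIP3-1 had 9 reads in the flg22 library and 24 in the control library, and TIP3-2 had 12 with flg22 and 3 in control. TIP1-3 (AT4G01470) and TIP5-1 (AT3G47440), the pollen-type genes, had 0 reads in both libraries, which at a floor of 3 reads allows up to 0.122 CPM (reads in 1e6 library reads) in the flg22 library and 0.140 CPM in the control library.

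NIP2-1 was the member with the largest difference of all. NIP2-1 (AT2G34390, chr2:14514487-14515988) encodes a channel for lactic acid that is known to be induced when oxygen is low. It had 68.9 RPKM from 2424 reads in the flg22 library and 5.36 RPKM from 164 reads in the control library. The log2 ratio was 3.46 and the plain ratio 12.9 (10.97 to 15.2). It shares 868 exon bases in all with AT2G34380 and AT2G08660, both on the opposite strand. AT2G34380 had 251 reads with flg22 and 222 reads in control, a plain ratio of 0.983 (0.818 to 1.18), and AT2G08660 was not analysed here. Without a record of strand, reads in those bases cannot be assigned to one gene.

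The other NIP genes lay within 2-fold or did not pass the filter. NIP1-2 (AT4G18910), which carries aluminium malate, had 11.6 RPKM in the flg22 library and 6.17 RPKM in the control library, a plain ratio of 1.88 (1.64 to 2.16). NIP5-1 (AT4G10380), the boric acid channel of the root surface, had 16.3 RPKM from 1439 reads with flg22 and 11.4 RPKM from 875 reads in control, a plain ratio of 1.43 (1.31 to 1.56). NIP3-1 (AT1G31885), which passes arsenite, had 113 reads with flg22 and 44 reads in control, a plain ratio of 2.23 (1.56 to 3.24) but a log2 ratio of 0.77. All 3 genes were above control while the log2 ratios stayed under 1. NIP3-1 passed 2-fold with 0.1 RPKM added, at 1.103, and in the authors' deposited table, at 1.201.

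NIP6-1 (AT1G80760), which directs boric acid to young shoots, had 218 reads in each library, and its interval of 0.718 to 1.05 held 1. NIP1-1 (AT4G19030), another arsenite channel, had 9.07 RPKM with flg22 and 9.59 RPKM in control, with an interval of 0.824 to 1.08. NIP7-1 (AT3G06100), an anther gene, had 33 reads with flg22 and 10 in control and did not pass the filter, nor did the pollen gene NIP4-2 (AT5G37820) with 2 reads with flg22 and 5 in control. The pollen gene NIP4-1 (AT5G37810) had 0 reads in both libraries. The summed NIP level was 115.02 RPKM with flg22 and 40.4 RPKM in control, a ratio of 2.85 that was 1.32 without NIP2-1.

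SIP genes showed little difference except at 1 weakly expressed gene. SIP1-1 (AT3G04090) had 37.8 RPKM from 1927 reads in the flg22 library and 33.7 RPKM from 1492 reads in the control library, a plain ratio of 1.12 (1.05 to 1.20). SIP2-1 (AT3G56950) had 16.3 RPKM with flg22 and 17.7 RPKM in control, with an interval of 0.822 to 1.03. SIP1-2 (AT5G18290) had 3.43 RPKM from 282 reads with flg22 and 1.06 RPKM from 76 reads in control, a plain ratio of 3.23 (2.50 to 4.21). Its listed gene length was 2.58 times its joined exons, the highest of the members, which lowers its RPKM. By joined exon length it had 8.84 RPKM with flg22 and 2.74 RPKM in control. Its log2 ratio of 1.103 came within 2-fold when 5 RPKM was added (0.48) or when libraries were scaled by reference genes (0.91). Under that second scaling the log2 ratio of SIP1-1, 0.16 as measured, was -0.09, the one member whose sign differed.

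**Figure D2:**
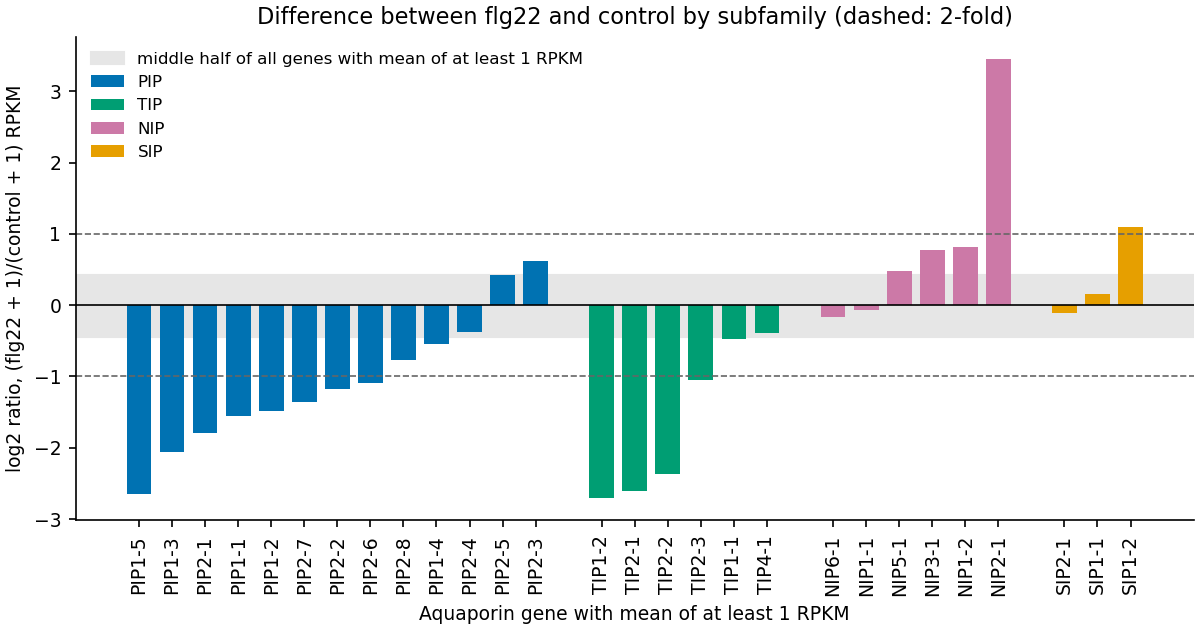
Log2 ratio of flg22 over control for the 28 aquaporin genes past the filter, ordered within each subfamily, with dashed lines at 2-fold and a grey band between the quartiles of all genes past the filter (-0.44 to 0.42). Bars of 8 PIP and 4 TIP genes pass the lower line, and NIP2-1 at 3.46 and SIP1-2 at 1.103 pass the upper line.

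On the lower side TIP2-3 at -1.05, PIP2-6 at -1.08 and PIP2-2 at -1.17 lay just past the 2-fold limit, and PIP2-8 at -0.77 was the nearest member short of it. On the upper side SIP1-2 lay past it at 1.103 and NIP1-2 short of it at 0.82. By counting error alone, 17 of the 28 members had an interval wholly below 1, 8 wholly above 1 and 3 that held 1. The share over all genes was not computed, so these counts do not set the members apart. Intervals are narrow where reads are many, and that of SIP1-1 excluded 1 at a plain ratio of 1.12 (1.05 to 1.20). In the authors' deposited table the log2 fold change furthest from 0 among the members was 3.73, for NIP2-1. The false discovery rates given there rest on 1 library per group. They cannot reflect the spread between plants and are not used here.

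The composition of the family differed between the libraries. PIP genes made up 53.2% of the summed RPKM in the flg22 library and 48.7% in the control library, and TIP genes 31.9% with flg22 and 48.8% in control. NIP genes made up 9.95% in the flg22 library and 1.12% in the control library, and SIP genes 4.98% with flg22 and 1.45% in control. These are shares of a total that was itself lower with flg22, and the PIP genes took a larger share while their summed level was lower.

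**Figure D3:**
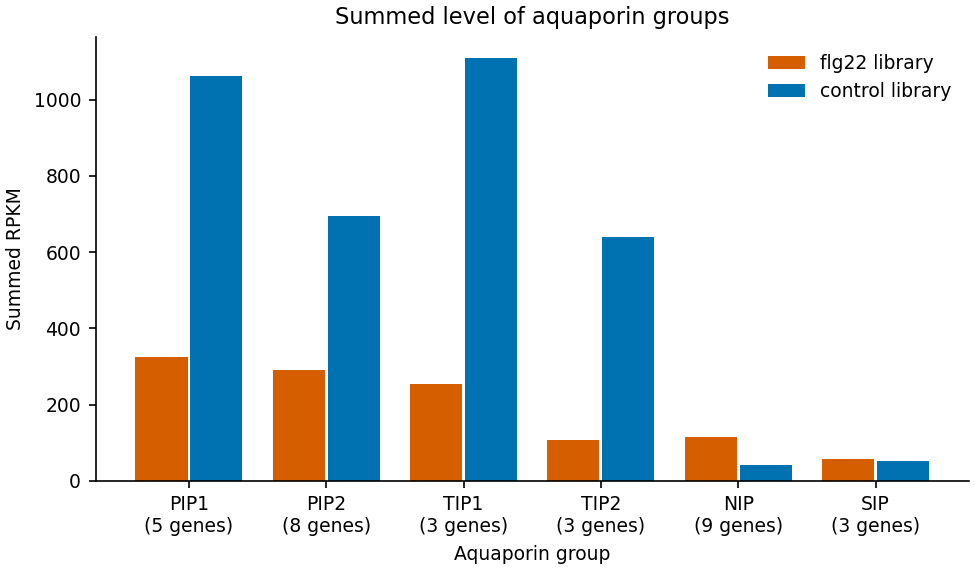
Summed RPKM of the PIP1, PIP2, TIP1, TIP2, NIP and SIP genes, with the flg22 library left and the control library right in each pair and no error bar, since each group is 1 library. The PIP1, PIP2, TIP1 and TIP2 sums are lower in the flg22 library, and the NIP sum is higher at 115.02 against 40.4 RPKM.

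The order of abundance was more even with flg22. The 3 most abundant members held 34.0% of the family's RPKM in the flg22 library and 52.6% in the control library, and the top 10 held 76.2% with flg22 and 89.0% in control. In control the order from the top was TIP1-2, TIP2-1, PIP1-2, PIP1-3, PIP2-7, PIP2-1, PIP1-5 and TIP1-1, where the counting intervals of neighbours overlapped only between PIP2-1 and PIP1-5. In the flg22 library the order was TIP1-2, PIP1-2, TIP1-1, PIP2-7, TIP2-1, PIP1-3, NIP2-1 and PIP2-6, where TIP1-2 overlapped PIP1-2 and PIP2-7 overlapped TIP2-1. NIP2-1 thus ranked 7 with flg22 and 24 in control. Of the 10 highest members, 8 were shared between the libraries. Levels between genes rest on the listed gene lengths, which for the members ranged from 0.689 to 2.58 times the joined exons. With joined exon lengths the order changed in part. In the flg22 library TIP2-1 then ranked 3, TIP1-1 5 and NIP2-1 8, and in control PIP1-1 ranked 8 and TIP1-1 10.

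Some closely related members differed from each other in their ratios. Pairs that were each other's closest relative by coding sequence numbered 12, and in 10 of them both genes passed the filter. In 4 of the 10 both members stood on the same side of the 2-fold limits, and in 6 only 1 member passed a limit. The counting interval of the ratio between the members' ratios excluded 1 for 8 of the 10. Other pairs of genes were not compared, so these counts do not show whether close relatives differ more or less than other genes. TIP1-1 and TIP1-2, identical at 81.1% of coding bases, stood furthest apart, and the ratio of TIP1-1 was 4.72 times that of TIP1-2 (4.46 to 4.995). PIP1-3 over PIP1-4, identical at 84.95%, gave 0.350 (0.326 to 0.375), and PIP2-5 over PIP2-6, identical at 76.98%, gave 2.98 (2.54 to 3.51). PIP1-1 over PIP1-2, identical at 87.6%, gave 0.944 (0.889 to 1.00), with both genes at least 2-fold lower.

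PIP2-2 and PIP2-3 lie near each other on chromosome 2 and are the most alike of these pairs, with 45 of 858 aligned coding bases different, or 94.8% identity. Their ratios pointed in opposite directions, and PIP2-2 over PIP2-3 gave 0.277 (0.238 to 0.322). Of the 50-base windows of their transcripts, 21.97% of those of PIP2-2 and 21.7% of those of PIP2-3 occur in the other gene, so reads there could have been counted for either, and both values are uncertain to that extent. Summed, the pair had 64.7 RPKM with flg22 and 119.9 RPKM in control, a plain ratio of 0.539 (0.512 to 0.568). With the pair counted as 1 gene its log2 ratio was -0.88, short of 2-fold, and the lower members numbered 11. Among the other members, only NIP4-1 and NIP4-2 shared such windows. The 120 coding bases in which the pair differs most, 16 bases from codon 139 on, are shown with the differing bases in capitals. PIP2-2 lies at chr2:15614137-15614256 on the minus strand and PIP2-3 at chr2:15618314-15618433 on the plus strand.
PIP2-2: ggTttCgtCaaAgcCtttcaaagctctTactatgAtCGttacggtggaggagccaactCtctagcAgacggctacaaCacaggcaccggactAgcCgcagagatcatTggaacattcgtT
PIP2-3: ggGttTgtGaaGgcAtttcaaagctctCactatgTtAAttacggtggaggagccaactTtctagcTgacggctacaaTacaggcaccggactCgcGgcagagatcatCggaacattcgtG

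**Figure D4:**
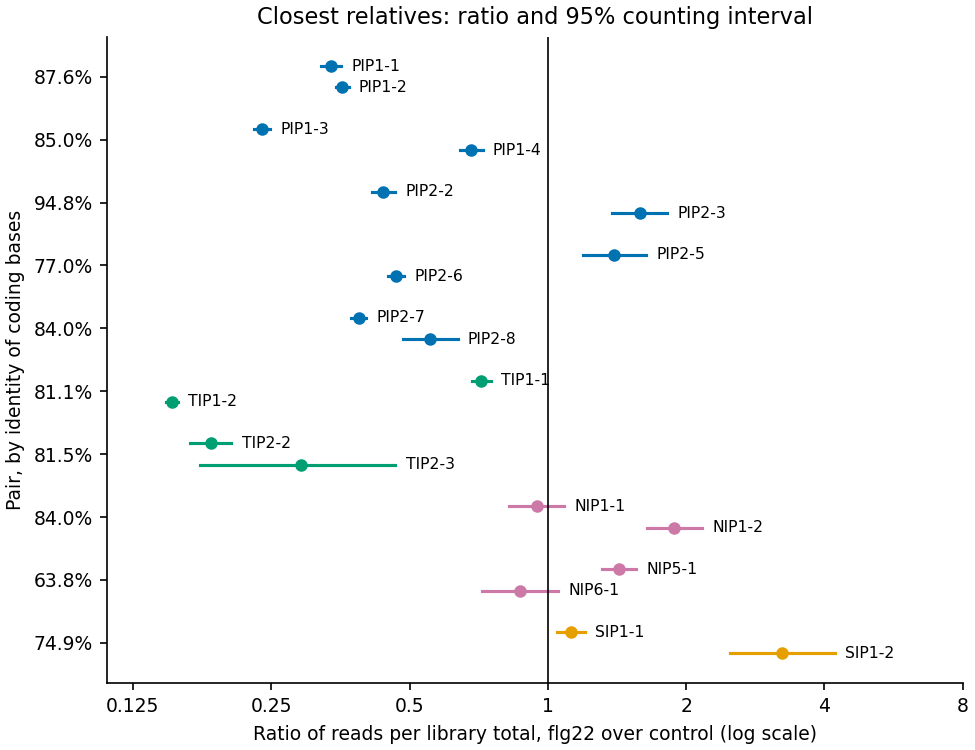
Plain ratio of flg22 over control, on a log axis, with the 95% counting interval, for the 10 pairs of closest relatives in which both genes passed the filter, labelled by identity of coding bases. TIP1-1 and TIP1-2 lie at 0.716 and 0.152, and PIP2-2 and PIP2-3 lie on opposite sides of 1 at 0.439 and 1.58.

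Promoter sequence was compared over the 250 bases before each gene start in TAIR10.1, on both strands, with the same window of 27438 protein-coding genes as background. The W-box core TTGAC, bound by WRKY factors, was present in 19 of 35 members and in 44.9% of all promoters. By subfamily it stood in 6 of 13 PIP, 5 of 10 TIP, 7 of 9 NIP and 1 of 3 SIP promoters. The core ACGTG was present in 4 members, of which 3 were TIP genes and 0 PIP genes, and in 22.9% of all promoters. GATAAG was present in 5 members and in 12.3% of promoters, TGGGCC or TGGGCT in 3 members and in 19.2%, TATAAA in 13 members and in 47.4%, and AAATATCT in 0 members and in 4.79%. The bases before the 3 genes with the lowest log2 ratios among the abundant members and before NIP2-1 are shown with TTGAC, or its reverse complement, in capitals. They lie at chr3:9723905-9724154 on the minus strand for TIP1-2, chr4:12220391-12220640 on the plus strand for PIP1-5, chr3:5505110-5505359 on the plus strand for TIP2-1 and chr2:14515989-14516082 on the minus strand for NIP2-1, where only the 94 bases outside the neighbouring gene are given.
TIP1-2: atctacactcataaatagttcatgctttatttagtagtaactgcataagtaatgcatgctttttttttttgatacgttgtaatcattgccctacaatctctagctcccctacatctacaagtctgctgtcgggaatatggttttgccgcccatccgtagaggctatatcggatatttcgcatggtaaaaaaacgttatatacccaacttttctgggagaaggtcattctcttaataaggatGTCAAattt
PIP1-5: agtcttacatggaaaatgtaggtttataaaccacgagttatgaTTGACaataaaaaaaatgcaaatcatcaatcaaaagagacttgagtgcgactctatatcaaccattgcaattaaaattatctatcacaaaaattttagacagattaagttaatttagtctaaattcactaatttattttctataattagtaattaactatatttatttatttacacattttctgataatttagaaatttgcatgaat
TIP2-1: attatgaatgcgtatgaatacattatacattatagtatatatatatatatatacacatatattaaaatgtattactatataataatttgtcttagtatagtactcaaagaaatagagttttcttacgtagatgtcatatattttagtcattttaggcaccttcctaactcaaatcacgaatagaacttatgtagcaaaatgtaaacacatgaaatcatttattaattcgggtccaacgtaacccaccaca
NIP2-1: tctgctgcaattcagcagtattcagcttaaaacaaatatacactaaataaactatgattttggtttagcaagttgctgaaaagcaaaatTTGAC
The motif lies 9 bases before the start of TIP1-2, 207 before PIP1-5 and 5 before NIP2-1, and these letters are not in the TIP2-1 window. NIP2-1 has 2 more copies of the core in its 250-base window, inside the neighbouring gene AT2G34400. Windows of 7 members reach into a neighbouring gene, and all counts of members and of background promoters include such bases. The core was present in 5 of the 12 lower members, in both higher members and in 6 of the 14 within 2-fold.

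Genes listed as partners or regulators of aquaporins were examined next to the family. The list is broader than genes that act on aquaporin proteins. It also holds the oxidase RBOHD and BCA1, which serves below as a leaf marker too. Of 15 listed partners and regulators, 14 passed the filter, with 5 higher, 2 lower, 7 within 2-fold and a median log2 ratio of 0.30. The shares over all genes past the filter were 11.3% higher and 8.27% lower. SYP121 (AT3G11820), a syntaxin that delivers PIPs to the plasma membrane and acts in defence secretion, had 89.9 RPKM in the flg22 library and 17.6 RPKM in the control library, a plain ratio of 5.11 (4.72 to 5.55). RBOHD (AT5G47910), the oxidase that starts the production of hydrogen peroxide outside the cell, had 120.8 RPKM with flg22 and 16.2 RPKM in control, a plain ratio of 7.44 (7.07 to 7.84). Both were past 2-fold on the log2 scale as well. The kinase-like protein QSK1 had 76.4 RPKM with flg22 and 24.5 RPKM in control. OST1, a kinase known to phosphorylate PIP2-1 in guard cells, had 17.4 RPKM with flg22 and 7.34 RPKM in control, and the calcium-dependent kinase CPK7 had 48.07 RPKM with flg22 and 21.7 RPKM in control. Lower were RMA2, a ubiquitin ligase of the group that acts on PIP2-1, at 4.17 RPKM with flg22 and 12.1 RPKM in control, and the carbonic anhydrase BCA1 at 64.5 RPKM with flg22 and 254.8 RPKM in control. VAMP721, a vesicle protein that pairs with SYP121, had 67.1 RPKM with flg22 and 54.3 RPKM in control, and VAP27-1, a protein of contact sites between the endoplasmic reticulum and the plasma membrane, had 52.3 RPKM with flg22 and 42.1 RPKM in control. These were the most abundant partners within 2-fold.

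Other transporters of the same membranes mostly lay within 2-fold, as did most genes. Of all genes past the filter, 8.27% were lower and 11.3% higher. None of the 7 plasma membrane proton pump genes past the filter, of 11 listed, passed 2-fold, and their median log2 ratio was -0.05. The most abundant, AHA2, had 453.3 RPKM in the flg22 library and 283.96 RPKM in the control library, and AHA1 had 194.7 RPKM with flg22 and 157.1 RPKM in control. At the vacuole, 0 of 10 listed pump, exchanger and channel genes passed 2-fold, and the median was -0.28. The pyrophosphatase AVP1 had 142.06 RPKM with flg22 and 262.07 RPKM in control, and the proton pump subunit VHA-A 126.4 RPKM with flg22 and 140.4 RPKM in control.

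Boron exporters work with the boric acid channels NIP5-1 and NIP6-1. Of 7 listed, 4 passed the filter, 2 were lower and 2 lay within 2-fold, beside 8.27% lower among all genes past the filter. BOR1 (AT2G47160), which loads boron into the xylem, had 8.11 RPKM with flg22 and 22.3 RPKM in control, a plain ratio of 0.364. BOR2 (AT3G62270) had 12.8 RPKM with flg22 and 37.7 RPKM in control, a plain ratio of 0.341. BOR3 was at 15.0 RPKM with flg22 and 15.7 RPKM in control, and BOR5 at 1.01 RPKM with flg22 and 1.24 RPKM in control. NIP5-1, by contrast, was above its control level within 2-fold.

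Marker genes of tissues were measured because whole seedlings hold several organs with different aquaporins. In bulk tissue, fewer cells of a type and less RNA per cell cannot be told apart. All 8 leaf and chloroplast markers were at least 2-fold lower, beside 8.27% of all genes past the filter. Their median log2 ratio was -2.15, with a sum of 2379 RPKM in the flg22 library and 9268 RPKM in the control library. RBCS1A, the small subunit of Rubisco, had 1234 RPKM with flg22 and 2713 RPKM in control, LHCA1, of the antenna of photosystem I, had 254.3 RPKM with flg22 and 1961 RPKM in control, and the regulator GLK1 had 12.5 RPKM with flg22 and 30.5 RPKM in control. The antenna gene LHCB1.1 had 195.5 RPKM with flg22 and 1384 RPKM in control, PSBO1 of photosystem II had 334.3 RPKM with flg22 and 1694 RPKM in control, Rubisco activase RCA had 141.8 RPKM with flg22 and 828.1 RPKM in control, and GAPA1 of the Calvin cycle had 142.1 RPKM with flg22 and 402.4 RPKM in control. BCA1, given above among the partners, is the other leaf marker. Most abundant PIP and TIP genes were lower as well. However, 5 of 13 PIP genes and 2 of the 6 TIP genes past the filter lay within 2-fold, and PIP2-3 and PIP2-5 were above control. Whether the leaf markers and the aquaporin values are related was not tested.

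Of 16 root markers, 12 passed the filter, 0 passed 2-fold on the log2 scale and the median was -0.07. Over all genes past the filter, 8.27% were lower and 11.3% higher. The root markers summed to 110.4 RPKM in the flg22 library and 108.4 RPKM in the control library. They did not move together, since 6 log2 ratios were below 0 and 6 above. Plain ratios ran from 0.487 (0.376 to 0.627) for CASP2 to 2.03 (1.59 to 2.61) for EXPA7. The most abundant root marker, the phosphate transporter PHT1-1, had 37.9 RPKM with flg22 and 24.2 RPKM in control. Seed markers were near absent, with 1 of 10 past the filter, EM6 at 2.13 RPKM with flg22 and 0.331 RPKM in control. Those under the filter went both ways. CRA1 had 7 reads with flg22 and 69 in control, CRU3 had 0 with flg22 and 35 in control, and SESA1 had 8 with flg22 and 1 in control. The summed level of the seed list was 3.11 RPKM with flg22 and 4.37 RPKM in control. Of 5 pollen markers 0 passed, AGP6 was the most abundant at 0.508 RPKM with flg22 and 0.159 RPKM in control, and VGD1 and VGDH1 had 0 reads in both libraries, beside the 0 or few reads of the pollen-type aquaporins. Of 8 reference genes used in transcript assays, 7 passed the filter with a median of 0.24, and 1, UBC9, was higher at 164.2 RPKM with flg22 and 49.8 RPKM in control.

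**Figure D5:**
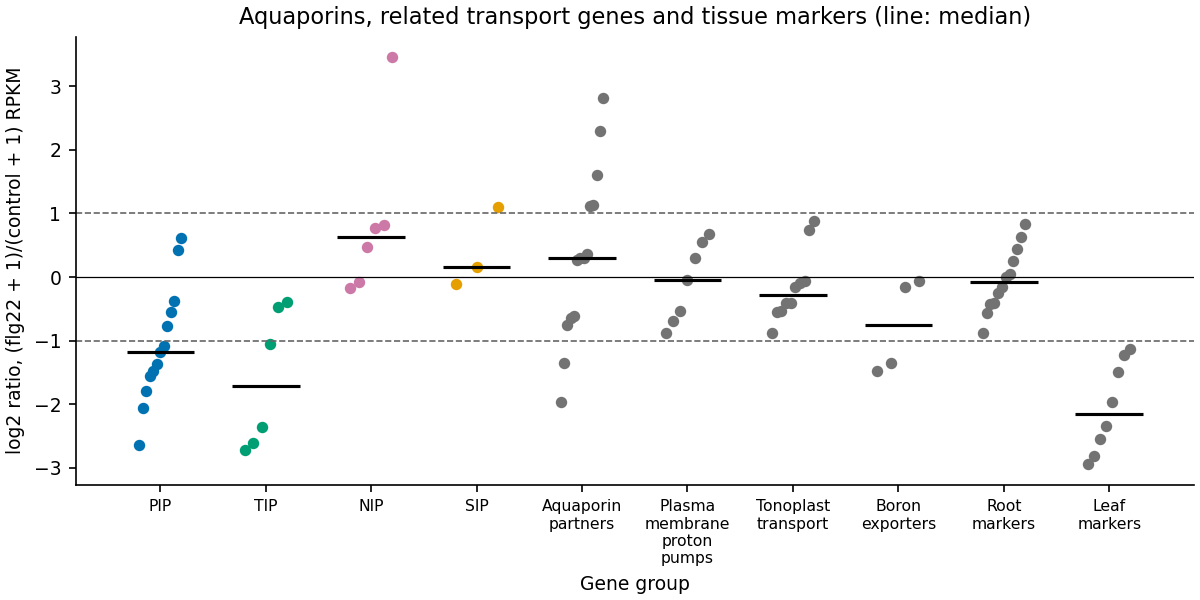
Log2 ratio of flg22 over control for each gene past the filter in the 4 aquaporin subfamilies, 4 lists of related genes and 2 lists of tissue markers, with a line at each median and dashed lines at 2-fold. The PIP and TIP medians are -1.17 and -1.71, the root marker median is -0.07 and the leaf marker median is -2.15.

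Reads of genes that overlap on the genome limit a few values. Of the 35 members, 27 overlap no other annotated gene and 7 share exon bases with one. SIP1-2 overlaps NAC088 and AT5G02885 on the opposite strand but shares 0 exon bases with them. NIP6-1, with 218 reads in each library, shares 26 exon bases with AT1G80750, which had 2335 reads with flg22 and 1027 in control. TIP5-1, with 0 reads in both libraries, shares 91 exon bases with NOA1. TIP3-1 shares 290 exon bases with AT1G73200, which had 1390 reads with flg22 and 1004 in control. TIP3-2 shares 553 in all with AT1G05333, not analysed here, and AT1G17820, which had 397 reads with flg22 and 343 in control. These genes lie on the opposite strand, so the few reads of TIP3-1 and TIP3-2 cannot be assigned to them with certainty. TIP2-1 shares 166 exon bases with neighbouring genes, among them PnsB3, which had 88 reads with flg22 and 380 in control, few beside the 3650 reads with flg22 and 19425 in control of TIP2-1. SIP2-1 shares 168 exon bases in all with AT3G08805, not analysed here, and CRD1 (AT3G56940), a chlorophyll synthesis gene with 3507 reads in the flg22 library and 17092 reads in the control library, while SIP2-1 had 626 reads with flg22 and 591 in control.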

How the data were processed

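Seedling RNA was sequenced on an Illumina HiSeq instrument after pooling 3 biological replicates into each library, per the labels. For each gene the authors deposited the read count, RPKM, log2 fold change and a p-value adjusted as a false discovery rate. TAIR10, Bowtie, TopHat and DESeq are named, with neither version nor role, per the submitters' processing notes. How reads were counted, and whether by strand, is not given in the sources used here. Reads from a gene and its antisense partner cannot be told apart. Deposited RPKM equalled the count divided by listed length and library total, to a relative difference of at most 7.24e-08. The 2 columns of scaled counts were not used.

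The groups follow the treatment label, with 1 library each, 24621440 reads for flg22 and 21414567 for control. Without replicates no test was made. Log2 ratios were computed with 1 RPKM added, genes averaging 1 RPKM or more were kept, and 2-fold set the calls. Ratios of reads per library total carry exact conditional binomial 95% intervals and levels at 0 a floor of 3 reads; both cover counting error only, and PCR duplicates were not marked by molecular identifiers. Coordinates, sequences, coding identity and motifs come from the RefSeq annotation of TAIR10.1, in which all 35 members were matched. Python 3.11.15, numpy 2.4.6, pandas 2.3.3, SciPy 1.17.1, matplotlib 3.10.9 and Biopython 1.88 were used. The interval and ratio code was tested on simulated data.

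The members and lists were chosen with earlier results of these data known. All members are named. Of the related gene lists, every gene past 2-fold and up to 2 others with the highest mean are named. Of the marker lists, the most abundant gene and those past 2-fold are named, with some further root, seed and pollen markers. Other added constants, filters, scalings, fold limits and gene lengths, sums of near-identical genes and the authors' log2 fold changes were tried.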

Additional observations from a re-analysis of the deposited data

How the results depend on the processing

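No replicate could be left out, since each group is 1 library. No paired analysis was possible because each group is 1 library. The 12 lower members became 5 at a 4-fold limit. The 2 higher members became 1 with 5 RPKM added, with a filter at a mean of 5 RPKM, with scaling by 7 reference genes or at a 4-fold limit, and 5 at a 1.5-fold limit. They became 3, with NIP3-1, with 0.1 RPKM added and by the log2 fold change in the authors' deposited table. The lower members were 11 with PIP2-2 and PIP2-3 summed. Of the 12, 11 were at least 2-fold lower in every setting of the constant and scaling. Of 140 alternative member ratios, 108 moved by less than counting error, 32 moved more, and 1 changed sign. Scaling by reference genes moved the median log2 ratio of all genes to -0.24. Subfamily medians under it were -1.42 for PIP, 0.41 for NIP and -0.087 for SIP. With a filter at 5 RPKM they were -1.27 for PIP, -2.36 for TIP and 0.026 for SIP, while TIP gave -0.50 with no filter and NIP 0.36 with 5 RPKM added. Ratios of summed RPKM under reference gene scaling were 0.293 for PIP, 0.175 for TIP, 2.38 for NIP and 0.918 for SIP. Scaling by the median of gene ratios gave 0.358 for PIP and 0.214 for TIP, and totals without the 10 most abundant genes 0.341 for PIP and 0.204 for TIP. With joined exon lengths the ratio was 0.202 for TIP and 2.43 for NIP. Without the most abundant member it was 0.279 for TIP and 1.32 for NIP. Among partners, 5 higher became 3 with 5 RPKM added or reference gene scaling, and 2 lower became 1 with 5 RPKM added. Proton pumps and vacuolar transport genes each gained 1 lower gene under reference gene scaling. Why these values moved was not tested beyond the settings' own construction. Depth limits the members at under 1 RPKM, where a few reads decide the ratio.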
